A study of Oryza sativa with 25 samples.

Results

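The transcripts described here stood high in rice callus growing on callus medium and low in callus moved to regeneration medium. They are 150 of the 57194 probe sets left on the Affymetrix Rice Genome Array after its control probe sets were set aside. Each probe set received a score, the growing callus mean minus the highest of the 4 means of regenerating callus at 2, 4, 6 and 8 days, on the scale log2(intensity + 0.0274). Members were thus chosen by their growing and regenerating callus levels: the 150 highest scores with a growing callus mean intensity of at least 0.5 were kept. The rule leaves out the beta-glucosidase gene Os9bglu31, the lectin gene ML and the chitinase genes. It set aside 6 probe sets at or above the threshold, for OsChia1a, OsChia1c, Cht10, Os9bglu31 and Chib3H-a, with scores from 1.81 to 3.61. Because the callus arrays chose the members, their callus levels are given as a description, and tests on the members compared the organs only, whose arrays the rule did not use. The spread in those tests is pooled over all groups, callus included.

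Callus is a mass of dividing cells that plant tissue forms on medium rich in auxin, and in rice it is usually raised from the seed's scutellum. On regeneration medium, where cytokinin is typically raised relative to auxin, parts of the callus green and form shoots. Root and callus are both heterotrophic, while leaf blades carry out photosynthesis, so vegetative organs are a natural reference for which callus transcripts are shared with normal tissue.

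RNA of Oryza sativa was measured on 25 arrays in 8 groups, with 3 arrays per group and 4 for young leaf, which the labels call biological replicates. Callus was raised from seeds on MS medium at 30 °C for 3 weeks; growing callus is that tissue, and the other 4 callus groups had spent 2, 4, 6 or 8 days on regeneration medium. Root (the whole root) and young leaf (the blade of leaf 4) were greenhouse material, and shoot was taken from growth chamber plants kept at 30 °C for 4 weeks. Leaf number 4 is given for root as well as for young leaf. All RNA was labelled from 500 ng of total RNA. No cultivar is stated, and whether arrays share a plant or a plate is not stated. Callus left on its first medium for the extra days was not measured, so effects of medium, handling and culture age cannot be told apart. Organ and growth place change together for shoot. In bulk tissue, fewer cells of a type and less RNA per cell cannot be told apart.

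The deposited values are linear intensities in which the 75th percentile of each array is 1, and array medians ran from 0.220 to 0.355. Correlations between replicates across probe sets ran from 0.973 to 0.989. Per the labels, poly(A) controls were in excess in 3 arrays, replicate 2 of growing callus and of the 2 and 4 day groups. Summed defining markers followed the organ labels: 4 root markers (OsLsi1, OsLsi2, OsIRO2 and OsPHO1;2) summed to between 187 and 221 in root and at most 16.8 elsewhere, and 4 leaf markers summed to between 347 and 450 in young leaf and to at most 1.14 in root. By itself OsIRO2 did not follow the root label, with means of 1.13 in root, 1.24 in young leaf and 1.10 in growing callus, and OsLsi1 made up most of the root sum. In growing callus the root markers summed to 1.75 to 2.11 and the leaf markers to 0.723 to 0.949. Growing callus replicate 3 stood apart. The late embryogenesis gene EM stood at 66.1, 28.4 and 1.05 in the 3 growing callus arrays, and RAB21, a dehydrin gene, at 92.3, 21.7 and 0.982. The 3 embryo and seed storage markers found of 4 summed to 158, 50.2 and 2.11 there, against 97.9 to 363 on the regenerating callus arrays. EM and RAB21 made up nearly all of these sums. The remaining marker, GluA1, was low throughout callus, with means of 0.0942 in growing callus and 0.0668 to 0.078 in regenerating callus. Replicate 3 was also the highest of the 3 arrays for 107 of the 150 members. The part of this array in the results was not tested beyond the values given with and without it.

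The probe annotation gave 1 gene to 96 of the 150 members, several genes to 0 and none to 54. The 96 probe sets cover 92 genes, of which LOC4349190, LOC4325617, LOC4327366 and LOC4341944 have 2 member probe sets each. A name other than a locus number was found for 7 members: OsHox2, OsALN, OsbHLH003, ONAC045, GSTU6, OsCCR1 and OsPP2C45. The rest carry only a locus number or a probe set identifier, and no role is given for them. Identifiers ending in _x_at (18 members) or _s_at (14 members) can detect related transcripts. By the stem of their identifier the members fall into 137 transcript clusters, and 22 members share a stem with another.

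Scores ran from 1.68 to 3.85 with a median of 2.08, or from a 3.20-fold to a 14.5-fold difference with a median of 4.22-fold. The last members, LOC4344545 among them, scored 1.68, and the first probe sets outside, to which no gene is annotated, scored 1.67. Thus no gap in the score separates members from non-members. Growing callus means spanned 0.538 to 56.7.

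In every growing callus array, 142 of the 150 members stood above all 12 regenerating callus arrays, against 5.27% of all 37218 tested probe sets; the rule used these arrays. The 8 exceptions each had growing callus replicate 2 at or below the highest regenerating array, while replicates 1 and 3 exceeded all regenerating arrays in 150 members each. The median over members of the ratio to the highest regenerating array was 2.46 for replicate 1, 2.65 for replicate 2 and 4.12 for replicate 3. Growing callus arrays differed by over 2-fold for 84 members and by over 4-fold for 21.

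**Figure D1:**
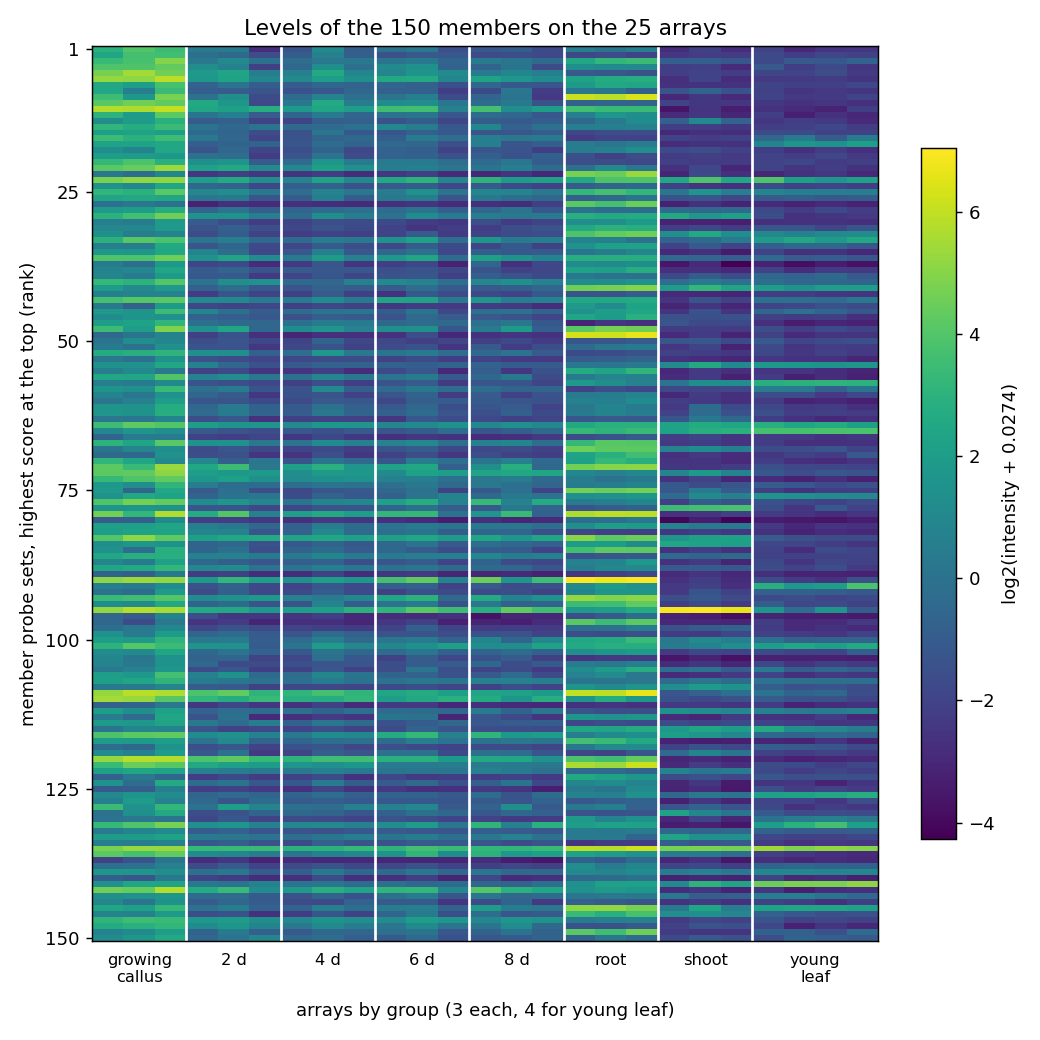
Levels of the 150 members (rows, ranked by score) on the 25 arrays (columns, by group), as log2(intensity + 0.0274) in colour. The growing callus columns are the brightest of the callus columns in nearly every row, many rows are bright again in root, and most are dark in shoot and young leaf.

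The rule required each member to be lower at all 4 times than in growing callus, so a drop at 2 days was fixed by the choice of members. Over members, the median group mean was 4.04 in growing callus, then 0.748, 0.682, 0.712 and 0.606 after 2, 4, 6 and 8 days. Over all tested probe sets the same median lay between 0.565 and 0.584 in the 5 callus groups. From growing callus to 2 days the members' levels differed by a median of 2.31 on the log2 scale. From 2 to 8 days the median member difference was -0.26, against -0.18 over all tested probe sets, and 124 of the 150 members stayed within 2-fold. At 8 days 20 members stood at least 2-fold below their 2 day mean and 6 at least 2-fold above it. These counts are a description, as the rule used all 4 regenerating means, and no share over all tested probe sets was taken for them. The highest regenerating mean fell at 2 days for 71 members, at 4 days for 15, at 6 days for 29 and at 8 days for 35. Replicate 2 had the highest member median at 2, 4 and 6 days, at 0.842, 0.833 and 0.934, and poly(A) controls were in excess in its arrays of 2 and 4 days. Markers of other cells moved over the same times. The 2 markers of dividing cells, CYCB1-1 and OsMCM3, summed to 6.60 to 10.2 in growing callus, 14.7 to 20.4 at 2 days and 6.81 to 10.4 at 8 days. The 4 leaf markers summed to 1.48 to 1.55 at 2 days and 7.26 to 13.7 at 6 days, and the 2 shoot meristem markers found of 3 to 0.357 to 0.405 in growing callus and 1.19 to 1.36 at 8 days. In root the shoot meristem markers summed higher than at 8 days, to 1.81 to 2.09, and in shoot to 11.7 to 16.6. The part of these other cells in the members' levels was not tested.

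**Figure D2:**
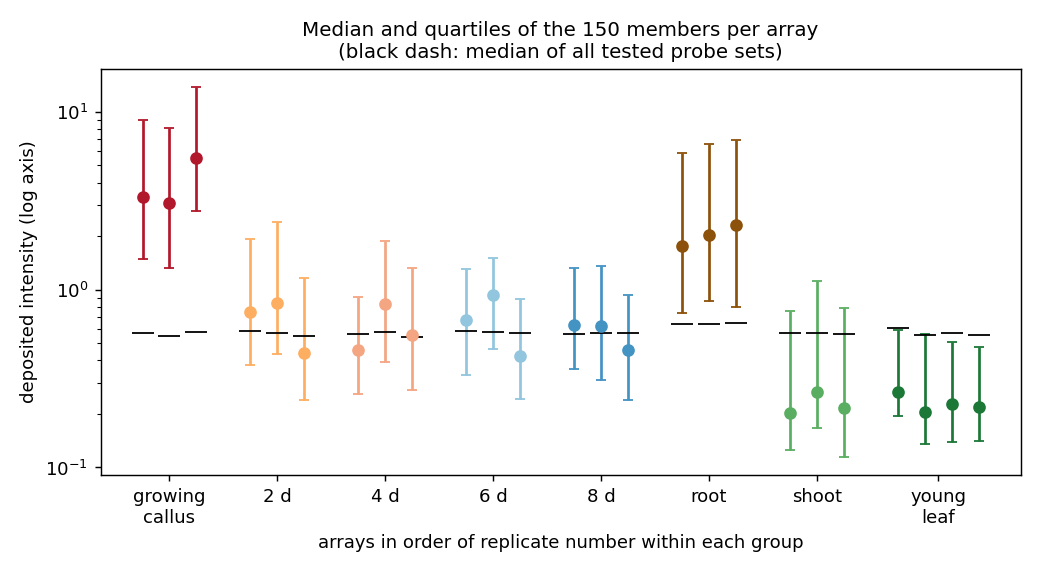
Median (point) and quartiles (bar) of the 150 members on each array, as deposited intensity on a log axis, with the median of all tested probe sets as a black dash. The 3 growing callus medians are 3.31, 3.08 and 5.47, the 12 regenerating callus medians run from 0.421 to 0.934, and root lies between them at 1.75, 2.04 and 2.30.

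The organs split the members sharply. Median member levels were 1.75, 2.04 and 2.30 in the root arrays, 0.203, 0.266 and 0.216 in shoot, and 0.265, 0.206, 0.227 and 0.218 in young leaf. Every root array thus lay above every regenerating callus array by this median, and every shoot and young leaf array lay below them. On the same arrays the median of all tested probe sets was 0.543 to 0.647 across the series. Growing callus had the highest group mean for 94 members, root for 47, shoot for 4, young leaf for 5 and regenerating callus for 0. The rule set the 0 for regenerating callus and favoured growing callus, so these counts and the comparisons with callus arrays are a description. No share over all tested probe sets was taken for the counts of highest group means.

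In root against young leaf, 105 of the 150 members (70.0%) were higher in root, where 16.5% of all tested probe sets were called in that direction. In the other direction 9 members (6.0%) were higher in young leaf, against 15.5% of all. The members' median difference was 2.56 on the log2 scale and that of all tested probe sets 0.02. A call required a limma adjusted p under 0.05 over all 37218 probe sets and a fold of at least 2. All 150 members passed the filter on low values, all but 1 of them by growing callus alone, where they stood above the array median on all 3 arrays. The tested probe sets could pass it in any group, so they are not matched to the members for growing callus level. Whether the organ shares differ from those of other transcripts high in growing callus was not tested, here or for the other 2 organ comparisons.

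In shoot against root, 98 members (65.3%) were higher in root and 12 (8.0%) in shoot, where 13.5% and 15.5% of all tested probe sets were called. The median difference was -2.18, against 0.05 over all. In shoot against young leaf the shares were near the background: 29 members (19.3%) were higher in shoot, against 16.5% of all, and 16 (10.7%) in young leaf, against 15%. The 3 organ comparisons share arrays and are not independent of each other. For 22 members none of the 3 was called, against 51.4% of all tested probe sets.

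Members chosen without growing callus replicate 3 gave 92 of 150 (61.3%) higher in root than young leaf and 11 lower, a setting added after the data had been seen. With 1 member kept per gene and identifier stem, also added afterwards, the share was 94 of 135 (69.6%).

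**Figure D3:**
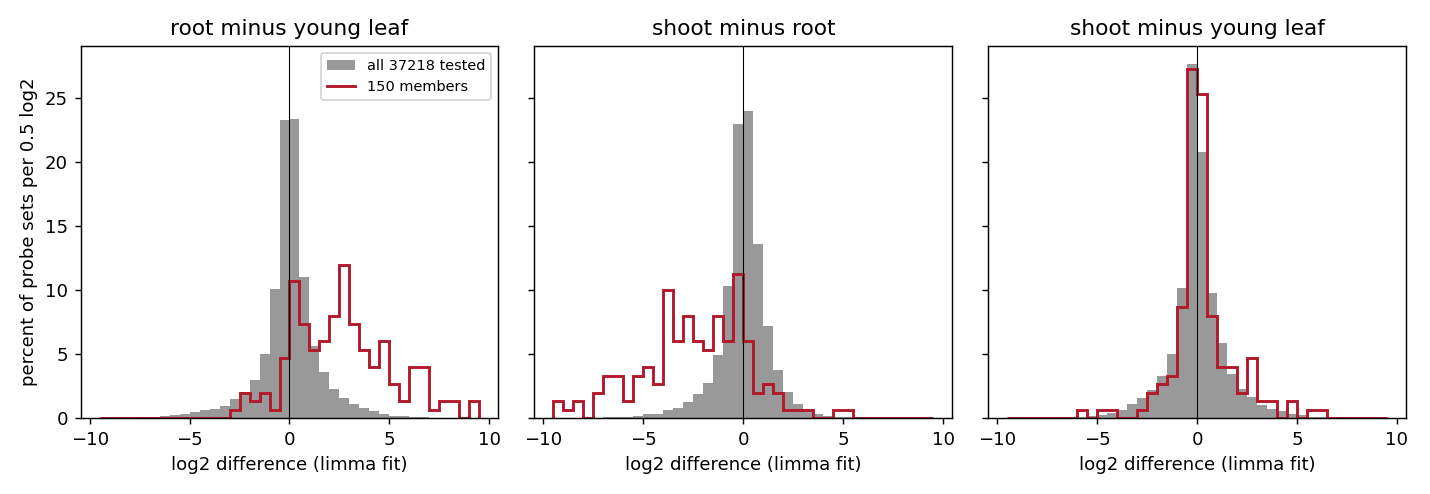
Distribution of the log2 difference between organs for the 150 members (red line) and all 37218 tested probe sets (grey), as percent of probe sets per 0.5 log2. The members are shifted toward root in the root minus young leaf and shoot minus root panels (medians 2.56 and -2.18) and centred near 0 in the shoot minus young leaf panel (median 0.05).

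Described array by array, every root array exceeded all shoot and young leaf arrays for 104 members, where 21.0% of all tested probe sets did so. The same held for shoot in 11 members (14.9% of all) and for young leaf in 8 (17.4%). All 3 root arrays stood above all 3 growing callus arrays in 29 members (37.2% of all), and growing callus stood above root throughout in 79 (30.1%). Growing callus exceeded every shoot array in 129 members (33.4%), every young leaf array in 135 (31.4%) and every organ array in 70 (14.6%). Root means passed the highest regenerating callus mean in 106 members (50.5% of all tested probe sets), shoot means in 36 (31.1%) and young leaf means in 34 (45.2%). The rule chose members for high growing callus and low regenerating callus. Counts that set organs against callus are therefore a description, and the shares over all probe sets are no matched reference for them. At or below the array median on every array were 15 members in root (17.1% of all), 72 in shoot (16.3%) and 77 in young leaf (15.3%). This held in shoot and young leaf alike for 53 members (6.49%) and in all 3 organs for 8 (2.91%).

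The regulators come first among the named members. OsHox2 (LOC4340070) encodes a homeodomain-leucine zipper factor of class II, a family that in Arabidopsis acts in auxin and shade responses. It stood at 3.48, 4.16 and 6.73 in growing callus, at 0.647, 1.01 and 0.528 at 2 days, at 0.641, 0.769 and 0.875 at 4 days, at 0.775, 1.03 and 0.511 at 6 days and at 0.715, 1.04 and 0.423 at 8 days. It stood at 0.985, 0.770 and 0.800 in root, at 0.790, 0.662 and 0.740 in shoot and at 0.263, 0.178, 0.278 and 0.186 in young leaf. Growing callus was above every other array, regenerating callus overlapped root and shoot, and young leaf was lowest. Both root (log2 1.84, SE 0.260, adjusted p = 1.6e-06) and shoot (1.70, SE 0.260, adjusted p = 5.3e-06) were higher than young leaf in limma's test.

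OsbHLH003 (LOC4331538) is a basic helix-loop-helix factor also known as RAI1, which acts in rice immunity. Growing callus arrays read 2.57, 3.33 and 2.81, with 0.602, 0.709 and 0.349 at 2 days, 0.419, 0.606 and 0.421 at 4 days, 0.707, 1 and 0.451 at 6 days and 0.859, 0.698 and 0.542 at 8 days. Root read 3.90, 3.77 and 2.11, shoot 5.48, 4.78 and 4.27, and young leaf 0.251, 0.239, 0.198 and 0.148. Shoot therefore exceeded growing callus on all arrays, root overlapped it, and young leaf lay under all regenerating callus arrays. The gene was higher than in young leaf both in root (log2 3.92, SE 0.246, adjusted p = 1.6e-12) and in shoot (4.57, SE 0.246, adjusted p = 1.2e-13).

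ONAC045 (LOC4349650), a NAC domain factor whose family acts in stress and senescence responses, had 2.28, 2.20 and 5.33 in growing callus. Its regenerating callus arrays read 0.678, 1 and 0.594 at 2 days, 0.419, 1.02 and 0.676 at 4 days, 0.768, 1.10 and 0.561 at 6 days and 0.629, 0.796 and 0.560 at 8 days. Its organ arrays read 2.42, 3.27 and 3.93 in root, 0.163, 0.259 and 0.234 in shoot and 0.274, 0.224, 0.225 and 0.514 in young leaf. Root and growing callus overlapped, and both lay above every shoot and young leaf array. Root was higher than young leaf (log2 3.44, SE 0.329, adjusted p = 3.1e-09), and shoot was lower than root (-3.66, SE 0.352, adjusted p = 6.0e-09).

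OsPP2C45 (LOC4337276) belongs to the type 2C protein phosphatases, a family with members that restrain abscisic acid signalling. It stood at 24, 20.5 and 54.4 in growing callus, 6.56, 10.3 and 2.27 at 2 days, 3.59, 7.04 and 5.11 at 4 days, 8.66, 9.42 and 1.98 at 6 days and 16.8, 7.86 and 5.80 at 8 days. Organ levels were 2.82, 3.56 and 3.20 in root, 0.115, 0.140 and 0.0851 in shoot and 0.152, 0.0724, 0.114 and 0.120 in young leaf. An array at 8 days, at 16.8, came near the lowest growing callus array, root overlapped the lower regenerating arrays, and shoot and young leaf lay far under all callus. Root exceeded young leaf by 4.68 on the log2 scale (SE 0.509, adjusted p = 2.6e-08), or by 3.84 with the larger pseudocount of 0.137.

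OsCCR1 (LOC4331085) encodes cinnamoyl-CoA reductase, which commits phenylpropanoid precursors to lignin. It stood at 10.5, 21.9 and 17.4 in growing callus, 5.87, 4.31 and 3.81 at 2 days, 3.05, 2.62 and 3.14 at 4 days, 1.25, 1.24 and 1.36 at 6 days and 1.26, 1.24 and 1.19 at 8 days. The arrays of 2 days all lay above those of 4 days, and those of 4 days above those of 6 and 8 days, which overlapped. Root stood at 48.7, 40.3 and 71.9, shoot at 0.110, 0.188 and 0.127, and young leaf at 0.298, 0.274, 0.198 and 0.246. All root arrays exceeded all growing callus arrays. Root was higher than young leaf (log2 7.62, SE 0.202, adjusted p = 2.5e-19) and shoot lower than root (-8.18, SE 0.216, adjusted p = 1.7e-18; -7.49 with the larger pseudocount).

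GSTU6 (LOC4349207) is a tau class glutathione S-transferase, an enzyme class that conjugates glutathione to reactive compounds. Its levels were 15, 18.3 and 19.4 in growing callus, 2.33, 2.86 and 1.62 at 2 days, 1.21, 2.35 and 1.97 at 4 days, 6.37, 9.64 and 1.57 at 6 days and 8.72, 3.39 and 4.06 at 8 days. Root read 1.46, 2.11 and 2.58, shoot 4.05, 3.08 and 1.97, and young leaf 0.717, 0.631, 0.727 and 0.603. Replicates differed widely at 6 and 8 days, yet no array reached the growing callus range. Against young leaf the gene was higher in root (log2 1.6, SE 0.434, adjusted p = 0.0029) and shoot (2.13, SE 0.434, adjusted p = 0.00018).

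OsALN (LOC4337428) encodes allantoinase, which opens the ring of allantoin in purine breakdown and so releases stored nitrogen. It stood at 2.02, 3.09 and 2.37 in growing callus, 0.450, 0.369 and 0.309 at 2 days, 0.411, 0.333 and 0.449 at 4 days, 0.380, 0.503 and 0.846 at 6 days and 0.392, 0.536 and 0.747 at 8 days. In the organs it stood at 9.83, 8.53 and 10.4 in root, 4.92, 7.08 and 7.76 in shoot and 13.5, 13.5, 14.0 and 14.2 in young leaf. Every organ array was above every callus array. No organ comparison of it was called at a fold of at least 2; shoot minus young leaf was -0.89 (SE 0.220, adjusted p = 0.0012).

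**Figure D4:**
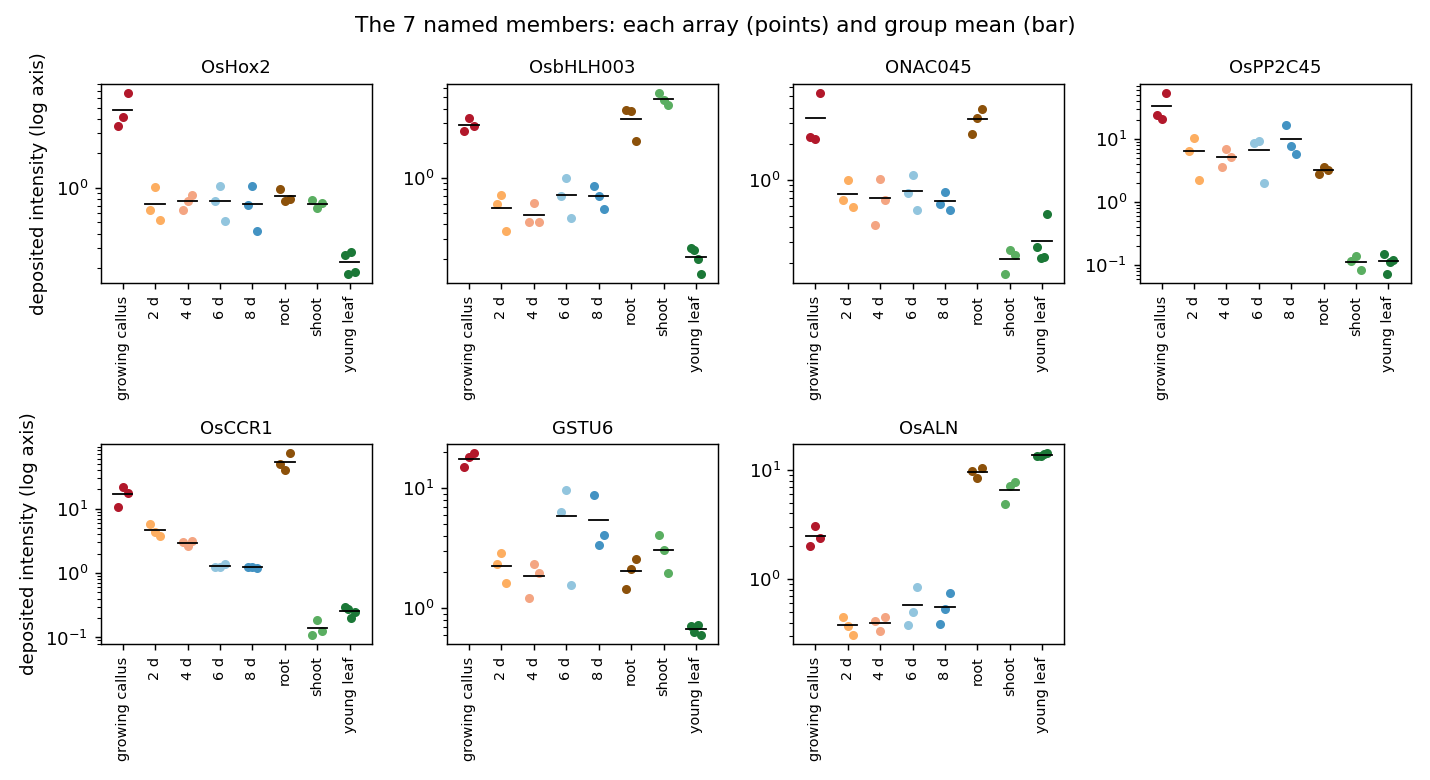
Deposited intensity (log axis) of the 7 named members on each array (points), with group means (bars), in growing callus, after 2 to 8 days on regeneration medium and in the 3 organs. All 7 have their growing callus points above the regenerating callus points; OsCCR1 is lowest in shoot (0.110 to 0.188), while OsALN is highest in young leaf (13.5 to 14.2).

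Among members with 1 annotated gene, the highest scores belonged to LOC4343963, LOC4335515, LOC4351191, LOC4329481 and LOC4340403. LOC4343963 stood at 26.2, 45.3 and 25.0 in growing callus and at 1.34 to 6.14 (median 1.85) on the 12 regenerating arrays. It stood at 0.442, 0.406 and 0.340 in root, 0.191, 0.230 and 0.191 in shoot and 0.239, 0.235, 0.302 and 0.162 in young leaf. Callus alone carried it at levels well above the array median, and no organ comparison of it was called. LOC4335515 stood at 38.8, 35.4 and 58.2 in growing callus and at 1.85 to 6.20 (median 3.28) after transfer. It read 4.94, 6.37 and 6.89 in root, 0.122, 0.226 and 0.114 in shoot and 0.170, 0.171, 0.177 and 0.149 in young leaf. Root overlapped regenerating callus and exceeded young leaf by 5.06 on the log2 scale (SE 0.384, adjusted p = 5.3e-11; 4.4 with the larger pseudocount).

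LOC4329481 stood at 5.74, 1.52 and 10.9 in growing callus and at 0.188 to 1.12 (median 0.437) on the regenerating arrays. Its organ arrays read 1.17, 1.07 and 0.564 in root, 0.363, 0.602 and 0.344 in shoot and 0.208, 0.147, 0.166 and 0.141 in young leaf. The 3 growing callus arrays differed more than 4-fold, and root overlapped shoot. Root was higher than young leaf (log2 2.30, SE 0.510, adjusted p = 0.00044); shoot was higher as well (1.40, SE 0.510, adjusted p = 0.022), and the shoot call was lost at 1.18 without shoot replicate 2.

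LOC4340403 was far higher in root than in any callus. Its growing callus arrays read 11.5, 3.34 and 27.8, the regenerating arrays 0.161 to 2.60 (median 0.922), and the root arrays 70.7, 61.1 and 86.1. Shoot read 0.101, 0.159 and 0.107 and young leaf 0.236, 0.165, 0.169 and 0.224. Root exceeded young leaf by 8.47 (log2, SE 0.632, adjusted p = 3.9e-11), or by 7.86 with the larger pseudocount.

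The other high scorers were, in order, LOC4347232, LOC4351190, LOC4346870, LOC4346877, LOC4324669, LOC4332797, LOC4325388, LOC4351198, LOC4343452 and LOC4327292. LOC4324669 stood at 4.27, 4.80 and 4.14 in growing callus and at 0.302 to 1.11 (median 0.426) on the regenerating arrays. It stood at 0.245, 0.309 and 0.309 in root, 0.0992, 0.126 and 0.118 in shoot and 0.280, 0.276, 0.213 and 0.211 in young leaf. Root overlapped the lowest regenerating array, and shoot and young leaf lay under all of them. LOC4343452 went the other way, with 1.13, 0.842 and 1.86 in growing callus, 0.101 to 0.204 (median 0.149) after transfer and 26.4, 22.7 and 39.2 in root. Its shoot and young leaf arrays stood at 0.264 or lower, and root minus young leaf was 7.70 (log2, SE 0.268, adjusted p = 2.8e-17). LOC4327292 was spread over all organs, at 6.17, 14.8 and 15.5 in root, 5.76, 15.4 and 5.64 in shoot and 15.1, 4.42, 3.22 and 4.64 in young leaf, under its 27.1, 35.3 and 36.3 in growing callus. None of its organ comparisons was called, and 1 young leaf array, at 15.1, stood far above the other 3.

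Other members had very high root levels. LOC4332792 stood at 0.717, 1.07 and 1.70 in growing callus, at 0.0930 to 0.345 (median 0.134) on the regenerating arrays and at 81.3, 76.5 and 101 in root. It read 0.104, 0.173 and 0.0820 in shoot and 0.206, 0.108, 0.140 and 0.148 in young leaf. Its callus level was thus small beside its root level; root exceeded young leaf by 9.11 (log2, SE 0.286, adjusted p = 4.6e-18), or 8.37 with the larger pseudocount. LOC4344046 stood at 33.8, 40.6 and 37.1 in growing callus, at 1.76 to 22.1 (median 4.27) after transfer and at 129, 112 and 127 in root, with shoot and young leaf at 0.334 or lower. It was higher in root than young leaf by 9.08 (log2, SE 0.613, adjusted p = 6.2e-12).

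A few members were highest in aerial organs. LOC4341944 is measured by 2 member probe sets, and both put it highest in shoot. The higher scoring probe set read 2.98, 2.99 and 2.77 in growing callus, 0.245 to 1.17 (median 0.421) on the regenerating arrays, 0.372, 0.477 and 0.561 in root, 11.1, 13.3 and 13.9 in shoot and 0.303, 0.152, 0.427 and 0.222 in young leaf. The other read 37.7, 56.2 and 47.3 in growing callus, 3.39 to 19.8 (median 7.70) after transfer, 3.61, 4.15 and 6.55 in root, 123, 133 and 102 in shoot and 3.25, 0.827, 3.27 and 0.492 in young leaf. Shoot exceeded root by 5.09 (SE 0.296, adjusted p = 1.2e-12) and 4.73 (SE 0.5, adjusted p = 2.7e-08) on the log2 scale by the respective probe set.

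LOC4337229, whose probe set ends in _x_at, was highest in young leaf, at 23.1, 27.7, 27.4 and 33.7. Growing callus read 2.72, 5.45 and 5.05, regenerating callus 0.607 to 1.70 (median 0.912), root 2.66, 4.56 and 4.55 and shoot 2.19, 8.17 and 5.02. Growing callus, root and shoot overlapped, and young leaf exceeded them all; root minus young leaf was -2.72 (log2, SE 0.310, adjusted p = 5.7e-08). LOC4332797 and LOC4326660, the latter measured by an _s_at probe set, were also higher in young leaf than root, by differences of -2.28 (SE 0.380, adjusted p = 1.5e-05) and -2.19 (SE 0.476, adjusted p = 0.00035) for root minus young leaf. Their young leaf means of 0.950 ± 0.443 and 1.05 ± 0.378 (SD, n = 4) lay under every growing callus array.

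LOC4347445 and LOC4328946 were low in shoot alone among the organs. LOC4347445 stood at 1.49, 1.3 and 2.31 in growing callus, 0.211 to 0.569 (median 0.330) after transfer, 2.16, 3.69 and 2.73 in root, 0.165, 0.209 and 0.122 in shoot and 7.20, 3.40, 4.12 and 14.4 in young leaf. Shoot minus young leaf was -4.83 (log2, SE 0.366, adjusted p = 5.5e-11; -4.24 with the larger pseudocount). LOC4328946 differed by -2.88 (SE 0.236, adjusted p = 2.2e-10) in the same comparison and by -3.96 (SE 0.252, adjusted p = 5.9e-12) for shoot minus root; these were -2.26 and -3.28 with the larger pseudocount. Its root minus young leaf difference was 1.08 (SE 0.236, adjusted p = 0.00037), and it lost its call without root replicate 1, at 0.85, or without young leaf replicate 1, at 0.96.

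LOC4327339 was shared by root and shoot and low in young leaf. It stood at 8.06, 12.5 and 24.1 in growing callus, 0.798 to 2.89 (median 1.39) on the regenerating arrays, 7.04, 6.27 and 6.41 in root, 6.15, 3.29 and 4.30 in shoot and 0.311, 0.137, 0.140 and 0.166 in young leaf. Root (log2 5.08, SE 0.366, adjusted p = 2.0e-11) and shoot (4.61, SE 0.366, adjusted p = 1.2e-10) both exceeded young leaf, with 4.45 and 3.99 at the larger pseudocount. LOC4348110 was higher in shoot than young leaf (log2 2.63, SE 0.445, adjusted p = 1.9e-05), on shoot arrays that ranged from 1.02 to 4.76.

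Some members lie close together in the genome. In the gene order of the RefSeq assembly ASM3414082v1, used here for names and neighbours only, 17 of the 92 member genes (18.5%) lay within 10 genes of another member, in 7 clusters. The share for other gene sets of this size was not taken, so whether 18.5% is high was not tested. The largest holds 5 members on chromosome 11, LOC4351190, LOC4351191, LOC4351195, LOC4351197 and LOC4351198, within a run of 7 genes. Of the genes within 10 places, 3 carry chitinase names that the rule leaves out, among them Chib3H-a, which the table also lists as RIXI, a xylanase inhibitor. Chromosome 11 carries 9 of the 92 member genes, or 1.06% of its 846 genes on the array, against 0.566% of 2649 for chromosome 1 and 0.110% of 908 for chromosome 12. Next after chromosome 11 came chromosome 10 at 0.779% and chromosome 4 at 0.701%.

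The 5 chromosome 11 neighbours were alike in callus, where the rule chose them, and all were low in shoot and young leaf. In root they differed, with means from 1.36 to 14.3. Their group means had a median of 10.3 in growing callus, then 1.74, 1.25, 0.808 and 0.646 after 2, 4, 6 and 8 days. Root was at 2.40, shoot at 0.135 and young leaf at 0.166. LOC4351198 read 17.7, 21.2 and 40.8 in growing callus and 0.921, 2.05 and 1.10 in root, whereas LOC4351197 read 8.26, 5.19 and 18.0 in growing callus and 9.58, 17.1 and 16.2 in root. LOC4351191 lay between, at 5.54, 4.16 and 13.6 in growing callus and 3.52, 5.89 and 5.40 in root. Replicate 3 was the highest growing callus array for each. All 5 were higher in root than young leaf, by log2 differences from 2.85 (LOC4351198, SE 0.364, adjusted p = 3.5e-07) to 6.41 (LOC4351197, SE 0.379, adjusted p = 5.3e-13).

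**Figure D5:**
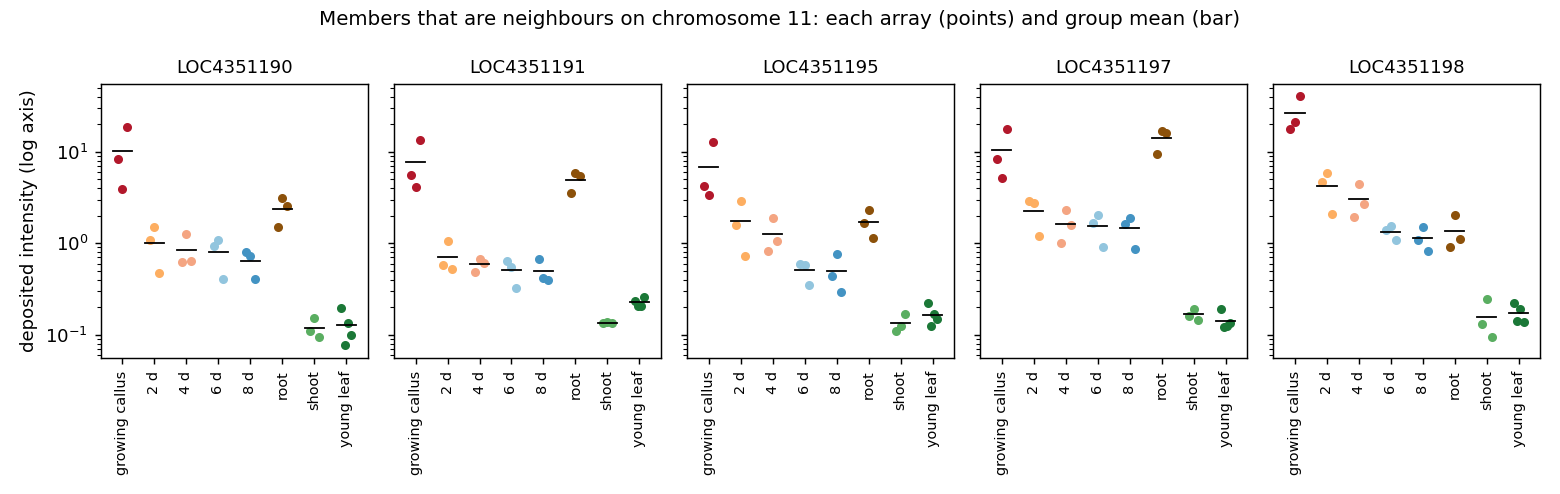
Deposited intensity (log axis) of the 5 members that neighbour each other on chromosome 11, for each array (points) with group means (bars). Each gene is high in growing callus, lower at 2 to 8 days and lowest in shoot and young leaf, while root ranges from a mean of 1.36 to 14.3 between the genes.

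The other clusters held a pair each. LOC4343962 and LOC4343963 are adjacent on chromosome 7. LOC4343962 stood at 8.92, 11.7 and 10.3 in growing callus and 1.93 to 4.07 (median 2.91) after transfer, and it was higher in root than young leaf (log2 2.53, SE 0.203, adjusted p = 1.4e-10), a comparison not called for its neighbour; the difference between the genes was not tested. On chromosome 3 the pair LOC4332792 and LOC4332797 went opposite ways, the former highest in root and the latter higher in young leaf than root. On chromosome 1, LOC4325395 read 0.750, 0.712 and 2.74 in growing callus and, higher on every array, 4.92, 7.53 and 12 in root, while LOC4325388 stood at 2.43, 1.79 and 5.69 in growing callus and 1.43, 1.63 and 2.49 in root. The remaining pairs were LOC4349167 and LOC4349190 on chromosome 10, LOC4341942 and LOC4341944 on chromosome 6, and LOC4346870 and LOC4346877 on chromosome 9.

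The largest group sharing an identifier stem had 5 member probe sets, 1 of which is annotated, to LOC4347232. It held the highest score of all. The median over its probe sets was 11.7 in growing callus, then 1.86, 1.71, 1.13 and 0.735 after 2, 4, 6 and 8 days, and 0.592 in root, 0.181 in shoot and 0.196 in young leaf. Root means differed between the probe sets, from 0.283 to 2.22. Root was called higher than young leaf for the highest scoring probe set (log2 3.06, SE 0.569, limma adjusted p = 6.2e-05). It was also called at 3.15 and, for LOC4347232, at 1.77, but not at 0.26 and 0.07. The probe set of LOC4347232 ends in _s_at. LOC4347232 read 17.6, 24.8 and 19.4 in growing callus, 0.264 to 6.30 (median 1.3) on the regenerating arrays and 0.571, 0.604 and 0.601 in root. These probe sets share a transcript cluster and are not independent observations.

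To set the members beside related genes, 310 tested genes outside the members were taken from 22 lists of symbols, and each day on regeneration medium was compared with growing callus. At 2, 4, 6 and 8 days 32 (10.3%), 39 (12.6%), 31 (10%) and 38 (12.3%) of them were lower, where 2.42%, 3.08%, 2.36% and 2.78% of all tested probe sets were called. Higher were 11 (3.55%), 11 (3.55%), 28 (9.03%) and 30 (9.68%), against 1.65%, 2.13%, 3.72% and 5.08%. The 4 comparisons share the growing callus arrays. Calls were more frequent than over all tested probe sets in both directions. The lists were chosen with earlier results of these data known, and each gene was read from its probe set of highest mean level. All tested probe sets are therefore no matched reference, and the excess was not tested.

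The lignin and phenylpropanoid list held 13 genes beside OsCCR1. At 4 days 5 of them were lower and 1 higher (median log2 -0.56, against 0.02 over all tested), and at 8 days 1 was lower and 1 higher. OsCAD7 fell from 13.7 ± 4.45 to 2.57 ± 0.465 at 8 days (log2 -2.28, SE 0.299, adjusted p = 7.6e-06) and OsCAD3 rose from 0.475 ± 0.0579 to 3.37 ± 0.647 (2.74, SE 0.292, adjusted p = 5.0e-07; SD, n = 3 each, limma); both are named as cinnamyl alcohol dehydrogenases. OsCAD7 shares high root (11 ± 0.968) and low young leaf (0.153 ± 0.0312) with OsCCR1, while OsCAD3 stands at 15.6 ± 4.97 in young leaf.

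Of 7 NAC genes beside ONAC045, 1 was lower at each time and 0 higher: ONAC067 fell from 29.8 ± 5.21 to 7.83 ± 2.59 at 8 days (log2 -1.81, SE 0.273, adjusted p = 4.1e-05). Of 5 glutathione S-transferase genes beside GSTU6, 1 was higher and 1 lower at 8 days. GSTZ5 rose from 2.37 ± 0.854 to 5.69 ± 0.745 (log2 1.39, SE 0.275, adjusted p = 0.00078). Of 6 WRKY genes, a family of defence regulators, 0 were called at any of the 4 times by limma, and 0, 2, 0 and 1 had an unadjusted p under 0.05 at 2, 4, 6 and 8 days. Of 12 AP2/ERF genes 2 were lower and 0 higher at 8 days, OsERF078 (log2 -2.18, SE 0.237, adjusted p = 6.5e-07) and OsDREB2D (-2.32, SE 0.425, adjusted p = 0.00035). OsERF078 went from 1.52 ± 0.212 to 0.285 ± 0.108. OsDREB2D went from 0.926 ± 0.287 to 0.147 ± 0.0882, under the lowest array median of 0.220. Of 9 MYB genes 2 were lower and 0 higher at 2, 4 and 6 days, and 1 was lower and 1 higher at 8 days.

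Among the transport lists, 8 of 44 mineral transport genes were lower at 2 days and 1 was higher. At 8 days 6 were lower and 2 higher. The ammonium transporter gene OsAMT1 fell from 5.27 ± 0.859 to 1.33 ± 0.108 at 8 days (log2 -1.90, SE 0.228, adjusted p = 2.4e-06), and the nitrate transporter gene OsNRT2.3 fell from 1.01 ± 0.232 to 0.186 ± 0.0410 (-2.06, SE 0.276, adjusted p = 9.5e-06). Both were higher in root, at 22.4 ± 2.93 and 3.19 ± 1.08. Of 22 potassium transport genes 1 was lower at each time, and of 18 sugar transport and invertase genes 3 were lower and 0 higher at 2 days, and 0 were lower and 1 higher at 8 days (OsCIN2, log2 1.76, SE 0.242, adjusted p = 1.3e-05). OsCIN2 went from 0.186 ± 0.0843, under the lowest array median of 0.220, to 0.677 ± 0.207.

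Of 42 Aux/IAA and ARF genes of auxin response, 3 were lower at 2 days and 12 at 8 days, with 2 higher at each time. The brassinosteroid synthesis gene OsDWARF11, in a list of 29 cytochrome P450 genes of which 4 were lower and 3 higher at 8 days, fell from 12.7 ± 4.10 in growing callus to 3.77 ± 0.654 at 2 days and 2.66 ± 0.744 at 8 days (log2 -2.13, SE 0.238, adjusted p = 9.7e-07). In the same list OsKAO, a gibberellin synthesis gene, rose by 2.21 (SE 0.195, adjusted p = 3.8e-08). Its mean went from 0.175 ± 0.0237, under the lowest array median of 0.220, to 0.904 ± 0.312, so the size of this rise is not firm. Of 15 auxin transport and GH3 genes 2 were lower and 2 higher at 8 days, and of 32 jasmonate genes 2 were lower and 1 higher.

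Of 25 expansin genes, which loosen cell walls, 8 were higher and 0 lower at 8 days, and of 5 lipid transfer protein genes 3 were higher. Of 6 low-oxygen genes 4 were lower at 8 days. At 8 days calls were 1 higher and 1 lower among 6 protease and amylase inhibitor genes, 1 higher among 5 alpha-amylase genes, 1 higher among 15 diterpenoid phytoalexin genes, 0 among 3 ethylene synthesis genes (0 at an unadjusted limma p under 0.05), 1 higher among 2 class III peroxidase genes and 1 higher for the single pathogenesis-related gene, PBZ1.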

How the data were processed

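The authors deposited 1 table of linear intensity values for 57381 probe sets on 25 arrays; GCOS 1.3 is named per the submitters' processing notes, and its summary and detection steps are not given in the sources used here. Detection calls were not used. Control probe sets (187) were left out. The members and gene lists were chosen with earlier results of these data known. Callus levels of members and the selection score use deposited values. For tests, 0.0274, 1 part in 10 of the median value of 0.274, was added before log2, and because array medians differed by a ratio of 1.61, over a limit of 1.5, the log2 values were quantile normalized. Probe sets that exceeded their array's median in 3 arrays or more (37218) were fitted together with limma 3.58.1 in R 4.3.3, using 1 coefficient per group, no block, 17 residual and 5.41 prior degrees of freedom. Calls required a Benjamini-Hochberg adjusted p under 0.05 within a comparison and a fold of at least 2. Each SE pools the spread of a probe set over all 8 groups. The number of arrays limits the precision.

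Named members were those with a gene name, the 15 highest scores with 1 gene, and the 3 largest called organ differences in each direction among members with 1 gene. From each list, the 2 genes of smallest adjusted p at 8 days were candidates for naming. Lists were matched on symbols and synonyms of the RefSeq gene table. Tested on simulated data for root against young leaf over 37218 probe sets, with 200 changed, the fit recovered 94% of log2 changes of 1.5 and 100% of those of 3. Of the unchanged probe sets 2 were called. The values were normal draws from the fitted means with 1 spread per probe set. The simulation therefore checks the fit under its own model and does not cover unequal spread between groups. Alternatives covered normalization, pseudocount (0.137), filter, fold threshold, a replicate block and left-out arrays. A planned search for promoter motifs was not run, and sequences were not analysed here.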

Additional observations from a re-analysis of the deposited data

Results flagged for a closer look

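Young leaf, the only group with 4 arrays, was checked for single far-lying arrays in 34 probe sets, those of the named members and of OsCAD3 and OsCAD7, and chance flags about 1 in 20 groups. For LOC4327339, replicate 1 of young leaf stood at 0.311, far from the other 3 arrays at 0.137, 0.140 and 0.166. For LOC4348110, replicate 1 stood at 0.445 beside 0.296, 0.299 and 0.303. For LOC4327292, replicate 1 stood at 15.1 beside 3.22, 4.42 and 4.64. The first 2 members were called higher in shoot than in young leaf under every alternative tried, and LOC4327292 was called in no organ comparison.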

How the results depend on the processing

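Of the 150 members, 145 were kept with quantile normalized values, 135 with the larger pseudocount, 123 with group medians, 120 to 135 without 1 growing callus array and 119 without the 3 arrays with excess poly(A) controls. Leaving out 1 array at a time gave 103 to 106 members higher in root than young leaf and 8 to 10 lower, 95 to 100 higher in root than shoot and 10 to 12 lower, and 25 to 33 higher in shoot than young leaf and 15 to 21 lower. Replicate numbers were not taken to pair samples, because whether arrays share a plant or a plate is not stated. Deviations of same-numbered arrays correlated from -0.278 to 0.393 (median 0.0108). Correlations passed 0.1 in 17 of 84 such pairs, a larger share than the 20 of 189 pairs of other numbers. Of 24 arrays, 13 were closest to an array of their own number. Whether the numbers mark a shared batch was not tested. With the replicate block, which changed no call count by over 1.5 times, 104 members were higher in root than young leaf, 98 higher in root than shoot and 26 higher in shoot than young leaf. Every count of members called in the organs stayed within 1.5 times its value in all settings, the added ones included. Member selections made after seeing the data gave 85 of 150 higher in root than shoot without growing callus replicate 3.

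Counts of genes from the lists moved more. By adjusted p alone, 19 were higher and 53 lower at 2 days, 17 and 63 at 4 days, 46 and 51 at 6 days and 53 and 61 at 8 days, as that setting drops the fold threshold. With the larger pseudocount 7 were higher at 2 days. Leaving out 1 array gave 9 to 13 higher and 25 to 33 lower at 2 days, 9 to 15 and 29 to 46 at 4 days, 23 to 31 and 28 to 37 at 6 days and 22 to 39 and 32 to 42 at 8 days.

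Of 44 called organ differences of members given in full, 42 kept their call in every setting and 0 reversed. The shoot over young leaf call of LOC4329481 and the root over young leaf call of LOC4328946 were lost in 3 settings each. The larger pseudocount moved 16 of the 44 by over 1.5-fold, since a larger constant shrinks differences against low levels. No detection calls were used, so differences against levels under the array median have no firm size or order.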
